A study of Mus musculus domesticus and Mus musculus domesticus x Mus musculus castaneus and Mus musculus castaneus with 27 samples.

Results

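Genes of DNA replication and of mitosis were followed by poly-A RNA sequencing in mouse stem cells that are pluripotent (PSC) and in motor neurons (MN) differentiated from them. The genes were taken from a list of 38 symbols, 34 of which were among the 27071 gene IDs of the deposited count table. Mcm5, Ccnb1, Tpx2 and Kif20a are not analysed here. The measured genes were 17 that act in DNA replication, the S-phase cyclins Ccne1 and Ccna2, and 15 that act in mitosis.

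The study sequenced stem cells and neurons of several mouse genotypes to assess the transcriptional identity of lines used as a model of neurite growth. MN libraries came from 129CAS (1 library), CAS129 (3), 129S6/SvEv, written 129 here (2), CAST/EiJ, written CAST (1), and C57BL/6, written BL6 (7). PSC libraries came from CAS129, CAST and BL6 (2 each). The labels call CAS129 and 129CAS F1 hybrids of Mmd and Mmc. They name no treatment and no engineered allele, and do not say how many lines, animals or cultures stand behind a group. The p-values below therefore measure the spread between libraries, which may be technical.

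A cell copies its DNA once per division. Mcm2 to Mcm7 form the ring-shaped helicase that is loaded onto origins by Cdc6 and Cdt1 and is set going with Cdc45 and the GINS complex. Cyclin-dependent kinases, the Aurora kinases and Plk1 then drive the separation of the copied chromosomes. Most replication genes are transcribed through E2F factors and most mitosis genes through the MuvB complex with B-Myb and FoxM1, while neurons have left the cycle for good.

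MN libraries held 5612575 to 44572794 counts, the deepest being those of 129 and 129CAS, and PSC libraries 4497912 to 13620056. No pair of replicates of the same group agreed within sampling noise. The labelled cell types were checked against marker lists. Summed levels of the 12 neuron markers came to 768 to 7150 CPM (counts scaled by the TMM-normalised library total) in MN and to 90.2 to 356 CPM in PSC, and the 11 measured pluripotency markers to 33.8 to 1250 CPM in MN and to 4560 to 5620 CPM in PSC. Mesenchyme and fibroblast markers were high in MN of every genotype, at 6600 to 31900 CPM, against 302 to 3310 CPM in PSC, and their part in the results below was not tested. In these bulk libraries, fewer cycling cells and less cycle RNA per cell cannot be told apart. The same holds for cell type and extraction kit, since MN and PSC RNA was extracted with different kits and these cannot be told apart.

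Of the 34 genes, Pcna and Tyms were listed at 0 in all 6 libraries of the hybrids, stem cells included. Pcna encodes the sliding clamp of DNA polymerases and Tyms makes thymidylate. Pcna stood at 34.6 and 37.5 CPM in 129 MN, at 34.8 CPM in CAST MN and at 28.1 to 41.5 CPM in BL6 MN, with a median of 37.7. In PSC it stood at 420 and 455 CPM in CAST and at 217 and 404 CPM in BL6. The same was seen for 298 of the 6923 genes that had at least 10 CPM in each of the 5 other groups. The cause was not tested, and the floor of 3 counts corresponds to 0.117 to 0.667 CPM in the hybrid libraries. Pcna (chromosome 2, 132249162 to 132253314 on GRCm38, minus strand) and Tyms (chromosome 5, 30058202 to 30073617, minus strand) are therefore described in 129, CAST and BL6 only, and 32 genes in the hybrids.

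All 34 genes were lower in MN than in PSC when the 17 libraries of CAS129, CAST and BL6 were fitted together with genotype as a covariate. The test was the quasi-likelihood test of edgeR, with p-values adjusted by Benjamini-Hochberg over 15596 genes and calls made at adjusted p below 0.05. Of all genes tested, 38.5% were called lower and 36.1% higher. The median log2 fold change was -4.30 over the 34 genes and -0.05 over all genes. Single genes ran from -6.28 for Mcm10 to -1.36 for Rrm1, and all 34 stayed called whichever of the 17 libraries was left out. Within genotypes, 31 were lower in CAS129 (23.9% of all genes), 34 in CAST (25.7%) and 34 in BL6 (34.2%).

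The level left in MN is given below as a group's mean CPM in percent of the PSC level, the mean of the 3 PSC genotype means. For Pcna and Tyms that level is the mean of CAST and BL6 PSC. Over the 32 genes the median level left was 1.92% in 129CAS MN, 20.6% in CAS129 MN, 2.93% in 129 MN, 1.8% in CAST MN and 3.01% in BL6 MN. Set against PSC of the same genotype it was 19.3% in CAS129 MN, 1.96% in CAST MN and 3.32% in BL6 MN. CAS129 MN kept more than 10% of the PSC level for 31 of the 32 genes, against 1 in 129CAS MN, 3 in 129 MN, 2 in CAST MN and 2 in BL6 MN. Levels under 2% were found for 16 genes in 129CAS MN, 0 in CAS129 MN, 8 in 129 MN, 17 in CAST MN and 11 in BL6 MN. Over all genes tested, the median was 91.9% in 129CAS MN, 87.6% in CAS129 MN, 108% in 129 MN, 98.4% in CAST MN and 101% in BL6 MN.

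**Figure D1:**
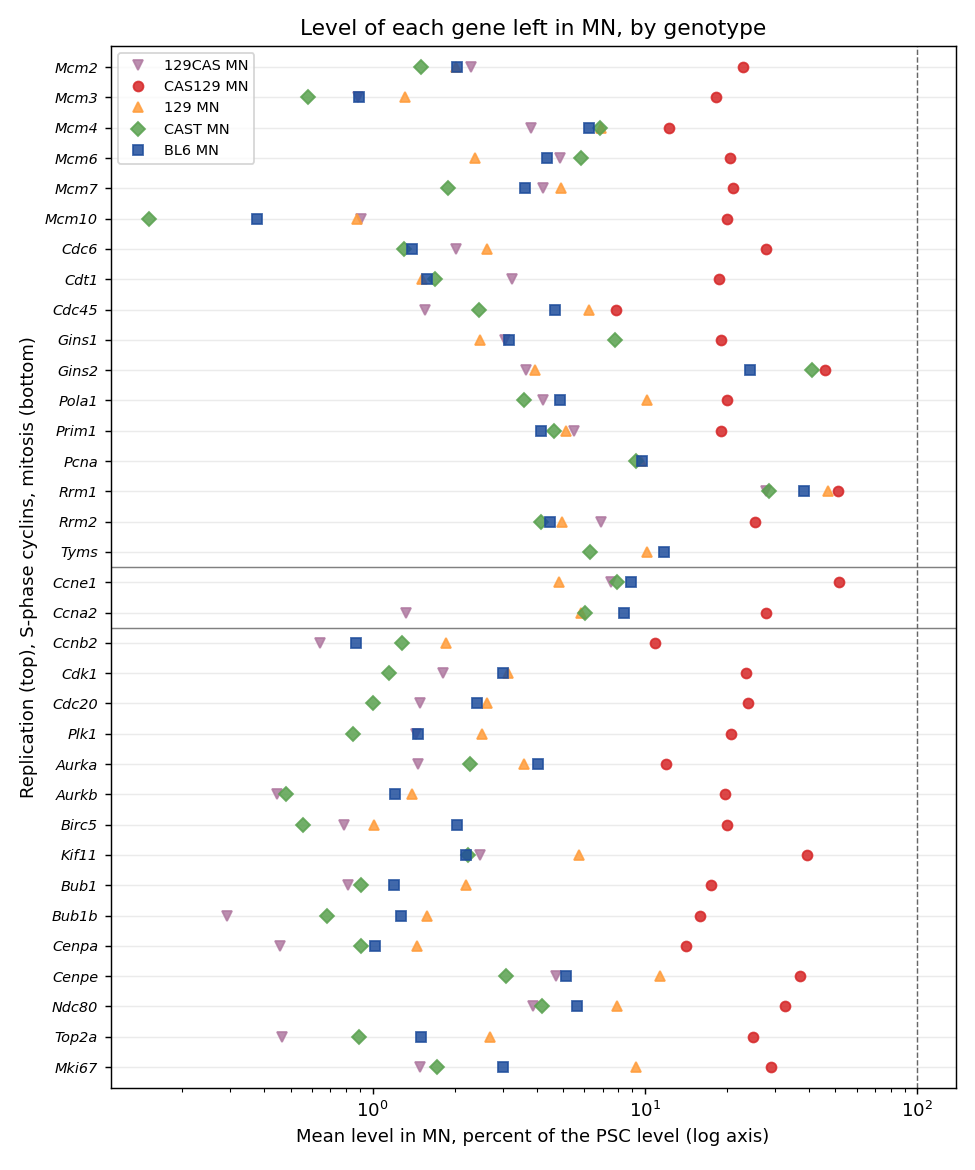
Mean level of each gene in the MN libraries of 5 genotypes, in percent of the PSC level, on a log axis, with the dashed line at 100%. The CAS129 points lie to the right, between 7.81% and 51.5%, and Pcna and Tyms have no point in the hybrids, where they were listed at 0.

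Licensing and helicase genes came first by role. Mcm2, a subunit of the helicase ring (chromosome 6, 88883474 to 88898780, minus strand), stood at 208, 223 and 102 CPM in CAS129 MN. It stood at 17.8 CPM in 129CAS MN, at 17.2 and 14 CPM in 129 MN, at 11.7 CPM in CAST MN and at 10.7 to 24.1 CPM in BL6 MN (median 12.3). PSC had 739 and 995 CPM in CAS129, 761 and 784 CPM in CAST and 584 and 778 CPM in BL6. Every PSC library was above every MN library, and the CAS129 MN libraries stood apart from the other MN. The log2 change between MN and PSC was -4.76 (SE 0.44, adjusted p = 3.4e-08 with edgeR).

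Mcm10, which helps to start the helicase (chromosome 2, 4989714 to 5012791, minus strand), had the lowest level left in BL6 MN, 0.377%. It stood at 66.6, 76 and 29.7 CPM in CAS129 MN and at 0.407 to 1.89 CPM in BL6 MN (median 1.19). In PSC it stood at 371 and 498 CPM in CAS129 and at 171 and 172 CPM in BL6. BL6 MN counts of Mcm10 were as low as 4 reads. Its log2 change was -2.92 in CAS129 (SE 0.34), -9.16 in CAST (SE 0.82) and -7.33 in BL6 (SE 0.31).

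Mcm3, another helicase subunit, kept 18.2% of the PSC level in CAS129 MN and 0.895% in BL6 MN. It stood at 158, 190 and 80.4 CPM in CAS129 MN, against 2.11 to 12.6 CPM in BL6 MN (median 5.59), and at 575 to 1012 CPM over the 6 PSC libraries. Mcm4, Mcm6 and Mcm7 of the same ring kept 12.3%, 20.5% and 21% in CAS129 MN, and 6.23%, 4.37% and 3.63% in BL6 MN. The loading factors Cdc6 and Cdt1 kept 27.9% and 18.7% in CAS129 MN, and 1.4% and 1.58% in BL6 MN. Members of the helicase ring thus differed among themselves in what BL6 MN kept, from 0.895% for Mcm3 to 6.23% for Mcm4.

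Cdc45 joins the ring to form the active helicase. It had the lowest level left of the 32 genes in CAS129 MN, 7.81%, but 16.8% of the level in CAS129 PSC, near the 16.9% of Mcm7 and 16.5% of Gins1 on that base. It had 5.44, 7.61 and 2.43 CPM in CAS129 MN. BL6 MN had 1.11 to 5.35 CPM (median 2.83), so the groups overlapped. In PSC, Cdc45 stood at 35.2 and 26 CPM in CAS129, at 68.7 and 107 CPM in CAST and at 75.9 and 83.7 CPM in BL6, and the CAS129 libraries were the low ones.

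Gins1 and Gins2 belong to the GINS complex of the same helicase. Gins1 kept 19% of the PSC level in CAS129 MN and 3.17% in BL6 MN. Gins2 (chromosome 8, 120578633 to 120589304, minus strand) kept 3.65% in 129CAS MN, 45.9% in CAS129 MN, 3.95% in 129 MN, 41% in CAST MN and 24.3% in BL6 MN. It stood at 4.74 CPM in 129CAS MN, at 64.1, 63.5 and 51.3 CPM in CAS129 MN, at 5.78 and 4.48 CPM in 129 MN, at 53.3 CPM in CAST MN and at 21.7 to 41.4 CPM in BL6 MN (median 30.6). PSC had 137 and 117 CPM in CAS129, 117 and 113 CPM in CAST and 125 and 170 CPM in BL6, and the Gins2 level in 129CAS MN and 129 MN stood apart below all other MN libraries. In the annotation, 67.3% of its exon bases, 2758 of 4097, lie under exons of Gse1 on the opposite strand. Gse1 itself stood at 174 CPM in 129CAS MN, at 76.7 to 103 CPM in CAS129 MN, at 136 and 169 CPM in 129 MN, at 119 CPM in CAST MN and at 50.3 to 89.6 CPM in BL6 MN. The sources used here do not say whether reads were counted by strand, so reads of the pair cannot be told apart and the Gins2 values are uncertain.

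Pola1 and Prim1 encode parts of the polymerase alpha and primase complex that lays down primers. They kept 20% and 19% of the PSC level in CAS129 MN, and 4.87% and 4.17% in BL6 MN. Pcna, the clamp, kept 9.74% in BL6 MN, and its log2 change there was -3.09 (SE 0.19, adjusted p = 3.7e-09 with edgeR) and in CAST -3.65 (SE 0.39).

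Nucleotide supply held the gene with the smallest change. Rrm1, the large subunit of ribonucleotide reductase (chromosome 7, 102441695 to 102469771, plus strand), kept 27.8% of the PSC level in 129CAS MN, 51.4% in CAS129 MN, 46.9% in 129 MN, 28.6% in CAST MN and 38.5% in BL6 MN. It stood at 122, 116 and 101 CPM in CAS129 MN and at 56.6 to 124 CPM in BL6 MN (median 69.2), and these groups overlapped. The other MN libraries had 61.1 CPM in 129CAS, 111 and 95.4 CPM in 129 and 62.9 CPM in CAST. PSC had 209 and 157 CPM in CAS129, 278 and 259 CPM in CAST and 271 and 144 CPM in BL6. The log2 change was -0.70 in CAS129 (SE 0.33, adjusted p = 0.083 with edgeR), -2.09 in CAST (SE 0.50) and -1.29 in BL6 (SE 0.27, adjusted p = 0.00042).

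Rrm2, the small subunit of the same enzyme, whose level follows S phase, behaved otherwise. It kept 25.3% of the PSC level in CAS129 MN and 4.47% in BL6 MN. It stood at 197, 232 and 112 CPM in CAS129 MN, against 13.6 to 57.3 CPM in BL6 MN (median 24.4). The PSC libraries had 404 to 1014 CPM. Tyms stood at 5.83 and 6.85 CPM in 129 MN, at 3.89 CPM in CAST MN and at 4.07 to 9.76 CPM in BL6 MN (median 7.29), and kept 11.8% in BL6 MN. In PSC it stood at 49.4 and 43.9 CPM in CAST and at 68.4 and 86.4 CPM in BL6, above every MN library with counts.

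The S-phase cyclins, which activate Cdk2, kept a median of 39.6% of the PSC level in CAS129 MN and 8.64% in BL6 MN. Ccne1, cyclin E1 (chromosome 7, 38097984 to 38107534, minus strand), kept 51.5% in CAS129 MN and 8.91% in BL6 MN. Rrm1 was next to it in CAS129 MN with 51.4%, and above it on the base of CAS129 PSC, with 61.6% for Rrm1 and 54.5% for Ccne1. It stood at 139, 147 and 69.8 CPM in CAS129 MN, at 17.3 CPM in 129CAS MN, at 11.8 and 10.5 CPM in 129 MN, at 18.2 CPM in CAST MN and at 12.3 to 28.2 CPM in BL6 MN (median 19.4). PSC had 274 and 161 CPM in CAS129, 192 and 139 CPM in CAST and 310 and 305 CPM in BL6. The highest CAS129 MN value thus lay below both CAS129 PSC values and above the lowest of CAST PSC. Its log2 change was -0.88 in CAS129 (SE 0.33, adjusted p = 0.034 with edgeR), -3.19 in CAST (SE 0.54) and -3.91 in BL6 (SE 0.26). Ccna2, cyclin A2, kept 1.33% in 129CAS MN, 27.8% in CAS129 MN and 8.38% in BL6 MN, and 12.5% of its exon bases lie under exons of Exosc9 on the opposite strand.

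Genes of mitotic entry and exit kept a median of 22.2% of the PSC level in CAS129 MN and 1.94% in BL6 MN. Ccnb2, cyclin B2 (chromosome 9, 70407692 to 70421547, minus strand), kept 10.9% in CAS129 MN and 0.866% in BL6 MN. It stood at 23.5, 24.4 and 12.9 CPM in CAS129 MN, at 1.19 CPM in 129CAS MN, at 3.37 and 3.54 CPM in 129 MN, at 2.38 CPM in CAST MN and at 0.111 to 3.3 CPM in BL6 MN (median 1.02). The lowest BL6 MN value was 1 read, and the PSC libraries had 142 to 271 CPM. Cdc20, which activates the anaphase-promoting complex, stood at 114, 127 and 51.9 CPM in CAS129 MN, at 3.36 to 18.2 CPM in BL6 MN (median 8.19) and at 338 to 558 CPM in PSC. Its log2 change over the 3 genotypes was -4.84 (SE 0.54). Cdk1, the main mitotic kinase, and the kinase Plk1 kept 23.6% and 20.8% in CAS129 MN, and 3.02% and 1.47% in BL6 MN.

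Of the Aurora kinases and spindle genes, Kif11, a motor that pushes spindle poles apart, kept 39.3% in CAS129 MN and 2.21% in BL6 MN. It stood at 64.8, 76.3 and 28.9 CPM in CAS129 MN, at 8.08 and 8.39 CPM in 129 MN and at 1.73 to 5.3 CPM in BL6 MN (median 2.54). The PSC libraries had 60.7 to 195 CPM, so the highest CAS129 MN value passed the lowest PSC value, a BL6 library. Aurka, the kinase of spindle poles, kept 12% in CAS129 MN, or 16.3% on the base of CAS129 PSC. It stood there at 24.1, 23 and 9.52 CPM, and at 3.23 to 12.2 CPM in BL6 MN (median 4). The lowest CAS129 MN library thus fell inside the BL6 MN range. Aurkb and Birc5, partners in the chromosomal passenger complex, kept 19.7% and 20.1% in CAS129 MN, and 1.21% and 2.04% in BL6 MN.

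Kinetochore and checkpoint genes had a median level left of 0.811% in 129CAS MN, 17.5% in CAS129 MN, 2.21% in 129 MN, 0.91% in CAST MN and 1.27% in BL6 MN. Cenpa, the histone that marks centromeres, stood at 47.6, 43.3 and 20.3 CPM in CAS129 MN, at 0.585 to 6.06 CPM in BL6 MN (median 2.22) and at 160 to 351 CPM in PSC. Its log2 change was -3.03 in CAS129 (SE 0.51) and -6.81 in BL6 (SE 0.43). Cenpe, a kinetochore motor, stood at 58.5, 48.8 and 37.3 CPM in CAS129 MN, at 6.09 CPM in 129CAS MN, at 15.6 and 13.9 CPM in 129 MN, at 4 CPM in CAST MN and at 2.54 to 14.9 CPM in BL6 MN (median 5.85). The PSC libraries had 52.3 to 181 CPM, so the lowest of them, a BL6 library, fell below 1 CAS129 MN library. Cenpe kept 37.2% in CAS129 MN and 5.15% in BL6 MN, and Ndc80, which binds microtubules, kept 32.6% in CAS129 MN and 5.64% in BL6 MN. The checkpoint kinase Bub1 kept 17.5% in CAS129 MN and 1.2% in BL6 MN, and its relative Bub1b kept 15.9% in CAS129 MN and 1.27% in BL6 MN.

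Top2a, the topoisomerase that untangles sister chromatids (chromosome 11, 98992943 to 99024189, minus strand), stood at 285, 329 and 153 CPM in CAS129 MN. It stood at 4.74 CPM in 129CAS MN, at 27 and 28.4 CPM in 129 MN, at 9.08 CPM in CAST MN and at 4.54 to 31.2 CPM in BL6 MN (median 9.46). PSC had 963 and 1531 CPM in CAS129, 888 and 1218 CPM in CAST and 900 and 632 CPM in BL6. The PSC libraries were all above the MN libraries, and within MN the CAS129 libraries were all above the rest. Mki67, the gene of the proliferation marker Ki-67, kept 29% in CAS129 MN, 9.27% in 129 MN and 3.01% in BL6 MN.

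**Figure D2:**
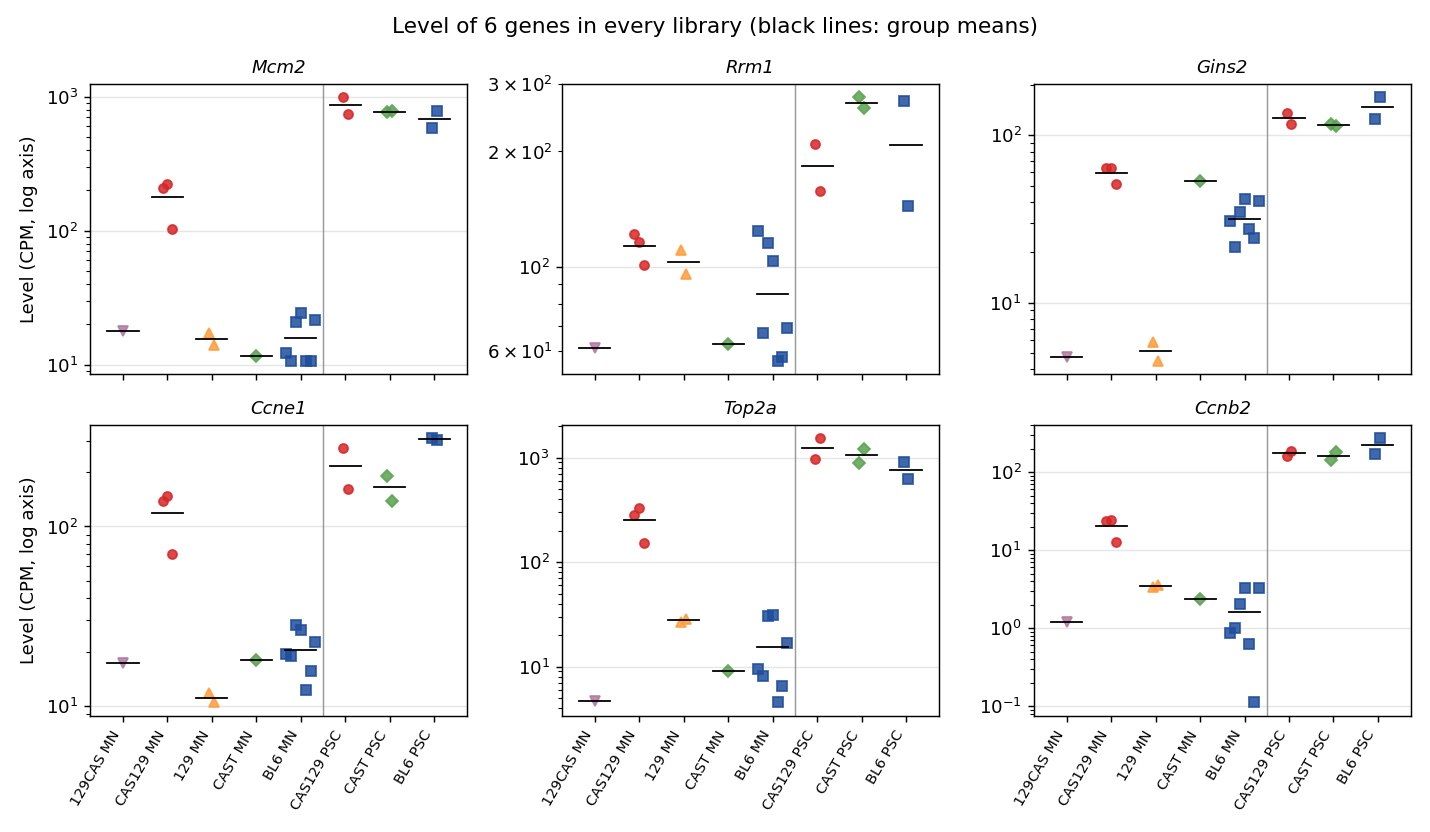
Level of 6 genes in every library, in CPM on log axes, with MN groups left of the grey line, PSC groups right of it and group means as black lines. CAS129 MN lies between the other MN and PSC for Mcm2, Ccne1, Top2a and Ccnb2, the Rrm1 groups overlap among MN, and Gins2 is lowest in 129CAS MN and 129 MN.

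Replication genes kept more of the PSC level than mitosis genes in MN of every genotype but CAS129. With 15 genes on each side, the median level left was 3.65% for replication and 1.44% for mitosis in 129CAS MN, 3.95% and 2.63% in 129 MN, 3.6% and 1% in CAST MN, and 4.17% and 2.04% in BL6 MN. In CAS129 MN the medians were 20.1% and 20.8%. Set as a ratio of replication to mitosis, single libraries gave 2.53 in 129CAS MN, 0.928 to 0.967 in CAS129 MN, 1.4 and 1.69 in 129 MN, 3.6 in CAST MN and 1.3 to 3.17 in BL6 MN (median 2.61). The PSC libraries gave 0.709 to 1.22, so the CAS129 MN ratios lay inside the PSC range and those of all other MN libraries above it. The PSC level is the mean over these same PSC groups, so their ratios are centred near 1 by definition.

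In log2 fold changes between MN and PSC over the 3 genotypes, replication had a median of -3.93 and mitosis of -4.85, a gap of 0.92. The gap was 0.581 without BL6 PSC replicate 2 and 0.604 without CAST MN replicate 1, and up to 1.179 in the other leave-one-out fits. The classes overlapped. Mcm10, Mcm3, Cdt1 and Cdc6 were below the mitosis median, and Cenpe and Ndc80, at -3.40 and -3.56, above that of replication. These gaps between classes are a description, and no test was made of them.

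**Figure D3:**
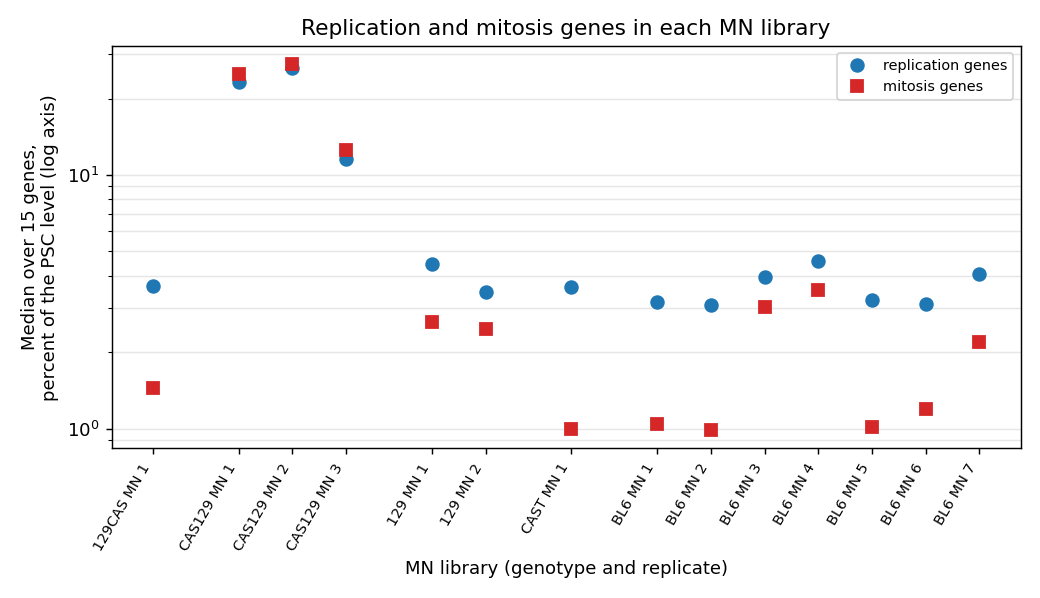
Median level of 15 replication genes (circles) and 15 mitosis genes (squares) in each MN library, in percent of the PSC level, on a log axis. The classes coincide in CAS129 MN, and in the other MN libraries the squares lie below the circles, closest in BL6 MN replicates 3 and 4.

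Mitosis genes also varied more between the 7 BL6 MN libraries. The highest library over the lowest gave a ratio with a median of 7.27 for mitosis (3.07 to 47.8) and of 2.26 for replication (1.37 to 5.98 over 17 genes). Replicates 3 and 4 were the pair with the highest values for 13 of the 15 mitosis genes and for 6 of the 17 replication genes. Neuron markers summed to 2310 and 2350 CPM in replicates 3 and 4, the lowest of the 7, against 2630 to 7150 CPM in the others. Neural progenitor markers summed to 3820 and 4750 CPM there, against 1660 to 3850 CPM, and mesenchyme markers to 28300 and 27300 CPM, against 14300 to 31900 CPM. Their part in the mitosis gene levels was not tested. In these replicates the mitosis median was 3.01% and 3.51% of the PSC level, against 0.986% to 2.2% in the other 5. The lowest mitosis values rest on as little as 1 read, so part of a large ratio is counting error. Mki67, for instance, stood at 15.3 and 25 CPM in replicates 3 and 4, and at 1.67 to 12.5 CPM in the rest.

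CAS129 MN replicate 3 was the lowest of its group for each of the 15 replication genes with counts, for both cyclins and for all 15 mitosis genes. Its class medians were 11.6% of the PSC level for replication and 12.5% for mitosis. Replicates 1 and 2 had 23.3% and 26.4% for replication, and 24.9% and 27.3% for mitosis.

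Whether the change between MN and PSC differed between genotypes was tested as a difference of differences. In CAS129 minus BL6, 30 of the 34 genes had a higher value and 0 a lower one (edgeR, adjusted p below 0.05), beside 13.7% and 4.53% of 15846 genes. The median difference in log2 was 2.13 over the 15 replication genes and 3.36 over the 15 mitosis genes. Over all genes it was 0.26, or 0.00 with RLE scaling and -0.03 with DESeq2. Of all genes called, 75.1% were higher, against 53% with RLE and 50.6% with DESeq2, and the 34 genes gave 22 calls with RLE and 27 with DESeq2, all higher. In CAS129 the median log2 changes were -2.45 for replication and -2.42 for mitosis, in BL6 -4.62 and -5.58.

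Single differences were largest for Mcm10 at 4.42 (SE 0.50, adjusted p = 3.3e-05), Bub1b at 4.13 (SE 0.69, adjusted p = 0.00078) and Ccnb2 at 4.03 (SE 0.73, adjusted p = 0.0013). Mcm2 had 3.15 (SE 0.51), Top2a 3.36 (SE 0.84, adjusted p = 0.011) and Ccne1 3.03 (SE 0.46). Cdc20 had 3.60 (SE 0.69), Cenpa 3.78 (SE 0.71), Mcm3 3.80 (SE 0.71) and Kif11 3.50 (SE 0.59). Rrm1, at 0.60 (SE 0.44, adjusted p = 0.4), and Cenpe, at 2.02 (SE 0.73, adjusted p = 0.066), were not called, and Pcna and Tyms have no counts in the hybrid. Cenpe passed without BL6 MN replicate 4 (adjusted p = 0.023).

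The count was 18 without CAS129 PSC replicate 2 and 21 to 31 without any other single library. Of the genes whose values are given in full, Top2a lost its call without CAS129 PSC replicate 1 (adjusted p = 0.066) or 2 (adjusted p = 0.053). Aurka, at 2.30 (SE 0.66), lost it without BL6 PSC replicate 2, CAS129 MN replicate 1 or 2, or CAS129 PSC replicate 1 or 2 (adjusted p = 0.084 to 0.12). Cdc45, at 2.13 (SE 0.65), lost it without any of these or without BL6 MN replicate 7 or 129 MN replicate 2 (adjusted p = 0.056 to 0.17). Gins2, at 1.14 (SE 0.34), lost it without any CAS129 library, or without BL6 PSC replicate 2, BL6 MN replicate 3, CAST MN replicate 1 or 129 MN replicate 2 (adjusted p = 0.062 to 0.24). Rrm2, at 2.05 (SE 0.69, adjusted p = 0.047), kept its call only without BL6 MN replicate 2, 3 or 4 or 129CAS MN replicate 1, and had adjusted p = 0.051 to 0.23 otherwise. With RLE scaling, Rrm2 (adjusted p = 0.096), Gins2 (0.1), Cdc45 (0.066) and Aurka (0.05) were not called, and Rrm2 and Gins2 also missed the threshold with upper-quartile scaling (0.071 and 0.059) and DESeq2 (0.06 and 0.077). Gins2 missed it without a filter on low counts as well (0.06).

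**Figure D4:**
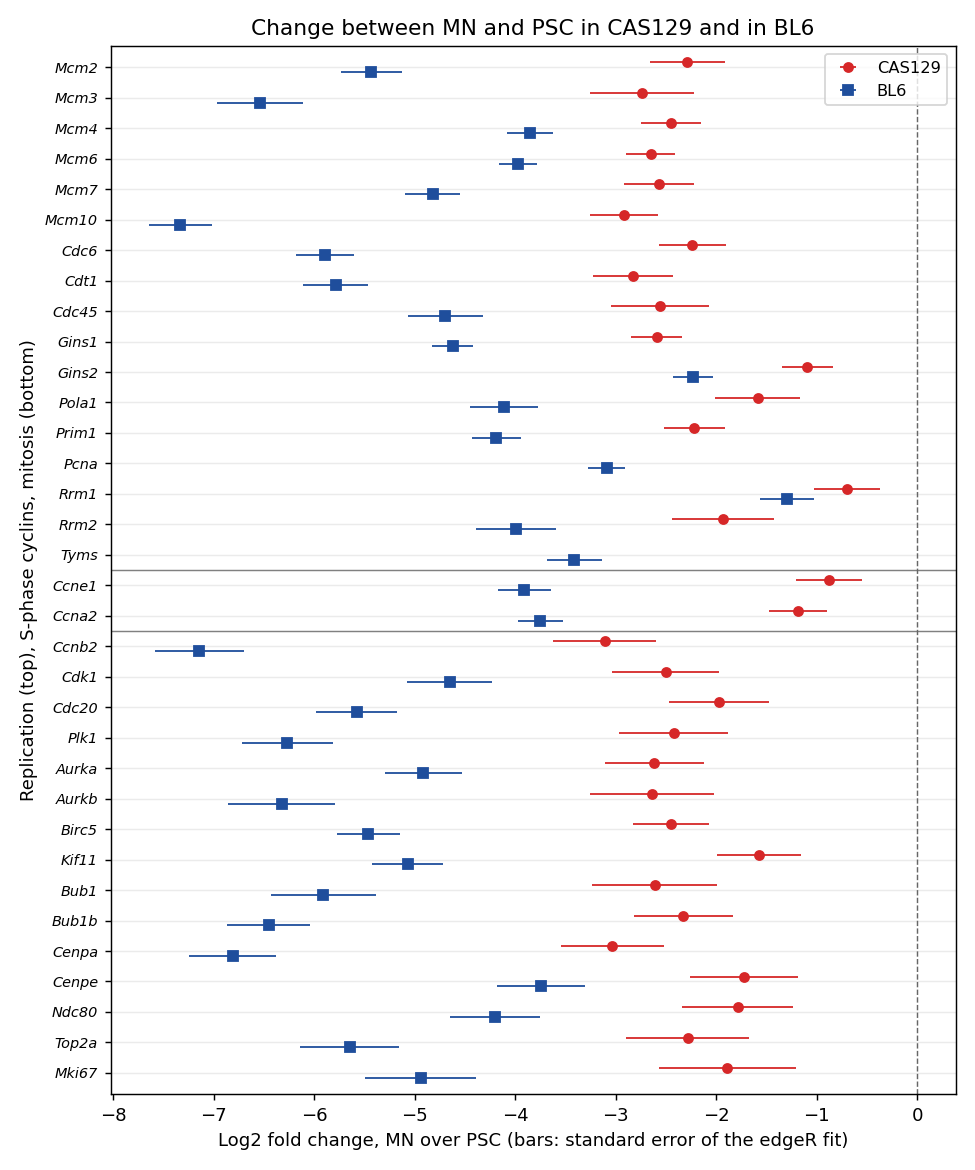
Log2 fold change of each gene, MN over PSC, in CAS129 (circles) and BL6 (squares), with bars for the standard error of the edgeR fit. The CAS129 points lie between -3.11 and -0.70 and each BL6 point lies to their left, by 0.60 for Rrm1 and by 4.42 for Mcm10, while Pcna and Tyms have a BL6 point only.

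Against CAST, the difference was higher in CAS129 for 22 of the 34 genes and lower for 0, beside 4.37% and 1.92% of all genes. The largest was again Mcm10, at 6.24 (SE 0.85, adjusted p = 0.00076 with edgeR). CAST has 1 MN library, and 31 genes passed at unadjusted p. The count was 11 to 14 without CAST PSC replicate 1 or 2, CAS129 MN replicate 1 or 2, CAS129 PSC replicate 1 or 2, BL6 MN replicate 7 or 129 MN replicate 2, and 13 with RLE scaling. CAST minus BL6 gave 0 calls with edgeR (7.28% of all genes in either direction), 2 at unadjusted p below 0.05 and 0 with DESeq2. Without BL6 PSC replicate 1 it gave 3.

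The same genes were then compared between MN libraries alone. In CAS129 MN against BL6 MN, 30 of the 34 genes were higher and 2 lower (edgeR), beside 27% and 32.5% of 14837 genes. The 2 lower ones were Pcna and Tyms. The median log2 fold change was 2.39 over the 15 replication genes and 3.54 over the 15 mitosis genes, and -0.08 over all genes. Mcm10 had 5.64 (SE 0.36), Mcm3 4.25 (SE 0.44), Cdc6 4.23 (SE 0.34) and Kif11 4.06 (SE 0.34). In 28 genes every CAS129 MN library was above every BL6 MN library, beside 27.3% of all genes.

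Cdc45, at 0.65 (SE 0.46, adjusted p = 0.25 with edgeR), and Rrm1, at 0.31 (SE 0.24, adjusted p = 0.29), were not called between CAS129 MN and BL6 MN. Cdc45 passed when BL6 MN replicates 3 and 4 were both left out (adjusted p = 0.041), a setting chosen after seeing the data. Aurka, at 1.47 (SE 0.45, adjusted p = 0.013), lost its call without CAS129 MN replicate 1 (adjusted p = 0.067) or 2 (adjusted p = 0.061). CAS129 MN against 129 MN gave 28 higher and 2 lower (25.2% and 31.4% of all genes), and against CAST MN also 28 and 2 (21.4% and 27%). Rrm1 and Cdc45 were among the genes not called in each.

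Pluripotency markers were read beside the cycle genes. Pou5f1, a transcription factor of pluripotent cells, stood at 179, 176 and 65.7 CPM in CAS129 MN and at 771 and 985 CPM in CAS129 PSC. It was listed at 0 in 129CAS MN and CAST MN, and stood at 0.0468 and 0.125 CPM in 129 MN and at 0.407 to 1.64 CPM in BL6 MN. The 11 markers summed to 491 to 1250 CPM in CAS129 MN and to 33.8 to 102 CPM in the other MN libraries, and all 11 were above 1 CPM in each CAS129 MN library.

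In percent of the PSC level of the same genotype, the markers had medians of 25%, 26% and 9.34% in CAS129 MN replicates 1, 2 and 3. Replication genes had 20.9%, 24.9% and 11.8% there, and mitosis genes 22.6%, 24.3% and 11.2%. In BL6 MN the markers had 0.0876% to 0.239%, the replication genes 3.25% to 5.74% and the mitosis genes 1.06% to 3.99%. In CAST MN the 3 medians were 0.17%, 2.58% and 1.27%. The marker median thus moved with the cycle gene medians across the CAS129 MN replicates, and in BL6 MN and CAST MN it lay below both classes. Single markers differed, with log2 changes between MN and PSC in CAS129 from -4.37 to 1.26. Neuron markers summed to 768 to 1030 CPM in CAS129 MN and to 2310 to 7150 CPM in the other MN, and neural progenitor markers to 6080 to 6410 CPM in CAS129 MN and to 1660 to 4750 CPM in the other MN. Members of the progenitor list went both ways between CAS129 MN and BL6 MN, with 4 higher (Sox1, Sox2, Nes and Vim) and 3 lower (Pax6, Fabp7 and Olig2). The median log2 fold change was -0.45 over the 10 tested, and over all genes 27% were higher and 32.5% lower. Olig2 and Hes5 were listed at 0 in CAS129 MN. Olig2 was also at 0 in 129CAS MN and CAS129 PSC, as Pcna and Tyms were. Its lower call is therefore not read as a difference in cell state. The part of any of these in the cycle gene levels was not tested.

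**Figure D5:**
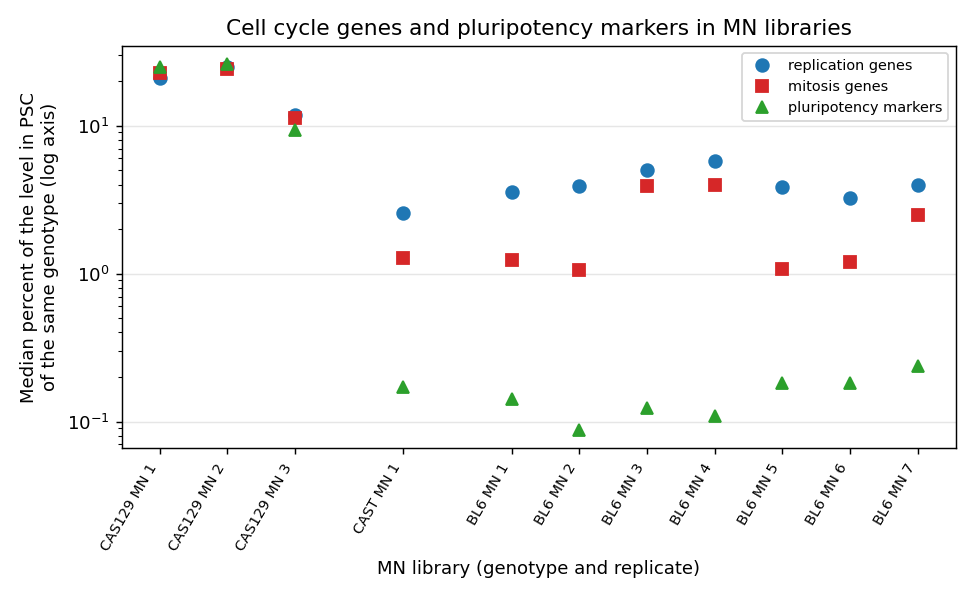
Median level of 11 pluripotency markers (triangles), 15 replication genes (circles) and 15 mitosis genes (squares) in each MN library of CAS129, CAST and BL6, in percent of the level in PSC of the same genotype, on a log axis. The 3 medians nearly coincide in each CAS129 MN library, and the triangles lie at 0.239% or lower in the other 8 libraries.

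The other hybrid, 129CAS, has 1 MN library, of 25686979 counts. In 129CAS MN against CAS129 MN, 29 of the 34 genes were lower and 0 higher (edgeR), beside 15.7% and 14.6% of 14837 genes, and every one of the 32 with counts was below every CAS129 MN library, beside 32.9% of all genes. Top2a had -5.91 (SE 1.24), Bub1b -5.90 (SE 1.19) and Ccna2 -4.53 (SE 0.48) in log2. Cdc45 (-2.47, SE 0.88, adjusted p = 0.051), Rrm1 (-1.04, SE 0.44, adjusted p = 0.09) and Rrm2 (-2.02, SE 0.82, adjusted p = 0.08) were not called. With 1 library, its spread is assumed to be that of the other groups.

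Against BL6 MN, 129CAS MN had 4 lower genes (24.8% of all genes) and 0 higher (16.4%). They were Gins2 at -2.99 (SE 0.41), Ccna2 at -2.91 (SE 0.43), and Pcna and Tyms, listed at 0. Without BL6 MN replicate 2 there were 7. Exons of opposite-strand genes cover 67.3% of the exon bases of Gins2 and 12.5% of those of Ccna2. The use of strand in counting is not known, so the Gins2 values are uncertain here and in 129 MN. The 129 MN libraries differed from BL6 MN in 4 genes, Kif11 higher at 1.24 (SE 0.39, 18.3% of all genes higher) and Gins2 at -2.75 (SE 0.29), Mcm6 at -1.02 (SE 0.24) and Ccne1 at -1.01 (SE 0.33) lower (18.1%). That count was 2 and 1 without 129 MN replicates 1 and 2, and 7 and 8 without BL6 MN replicates 2 and 4. CAST MN against BL6 MN gave 0 calls with edgeR (12.3% in either direction), 3 at unadjusted p and 1 with DESeq2, and 1 without BL6 MN replicate 2.

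Between the stem cells of the genotypes few genes were called. Per kilobase of exon, BL6 PSC levels ran from 5.69 CPM for Ndc80 to 250 CPM for Cdc20, and Rrm2, Mcm3, Ccnb2, Mcm7 and Plk1 followed Cdc20. CAST PSC against BL6 PSC gave 0 calls with edgeR (10.5% of 13795 genes in either direction), 4 at unadjusted p, 1 with DESeq2 and 5 without BL6 PSC replicate 1. Set against BL6 PSC, CAS129 PSC had 2 higher genes, Mcm10 at 1.38 (SE 0.29, adjusted p = 0.0094) and Mcm6 at 0.95 (SE 0.29, adjusted p = 0.044), beside 8.72% of all genes. Cdc45 was lower at -1.34 (SE 0.33, adjusted p = 0.02), as were Pcna and Tyms at 0 (17%). The count of 5 became 2 without replicate 1 of CAS129 PSC and 3 without replicate 2. Compared with CAST PSC, 4 genes were lower in CAS129 PSC (11.7%) and 0 higher (2.27%). They were Cdc45 at -1.50 (SE 0.33), Mcm4 at -1.08 (SE 0.30, adjusted p = 0.047), Pcna and Tyms. Leaving out either CAS129 PSC replicate, or CAST PSC replicate 2, left 2 calls.

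Further genes of the same processes were read from lists beside the 34. Of 29 measured replication genes outside the 34, all were lower in MN than in PSC, beside 38.5% of all genes. Their median log2 change was -3.54. Uhrf1, which passes on DNA methylation at forks, had -6.05 (SE 0.59), the DNA ligase Lig1 -3.94 (SE 0.26), and Dut, which removes dUTP, -3.47 (SE 0.26). All 28 measured further mitosis genes were lower as well, with a median of -4.05. The gene Ube2c of a ubiquitin-conjugating enzyme had -5.08 (SE 0.56), Espl1, the separase, -5.71 (SE 0.67), and Prc1, which bundles spindle microtubules, -2.90 (SE 0.14).

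In the difference between CAS129 and BL6, 20 of the 29 replication genes and 21 of the 28 mitosis genes had a higher value. None had a lower one, and over all genes 13.7% were higher and 4.53% lower. Uhrf1 had 3.88 (SE 0.61) and Espl1 4.54 (SE 0.78). In CAS129 MN against BL6 MN, 27% of all genes were higher and 32.5% lower. Beside these shares, 24 of the 29 were higher and 3 lower, and 25 of the 28 higher and 1 lower. Named for these small counts after their values were seen, the lower ones were Rfc5 of the clamp loader at -1.17 (SE 0.12), the chromatin assembly gene Chaf1a at -0.76 (SE 0.20), and Gins3 and Sgo1, which were listed at 0 in all hybrid libraries, as Pcna and Tyms were.

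Regulators of these genes moved in both directions. Of 18 E2F, MuvB and FoxM1 regulators, 14 were lower in MN than in PSC and 3 higher, beside 38.5% and 36.1% of all genes. Mybl2, which encodes B-Myb, had the largest change of the list, -7.90 (SE 0.84). It stood at 229, 253 and 105 CPM in CAS129 MN, against 0.61 to 2.8 CPM in BL6 MN, and at 741 to 1325 CPM in PSC. The difference between CAS129 and BL6 was 6.64 (SE 0.57, adjusted p = 2e-06 with edgeR), above that of any of the 34 genes. E2f4 had -1.92 (SE 0.22) and Tfdp1, the partner of E2F factors, -1.58 (SE 0.19), while Rb1, which holds E2F factors in check, was higher at 1.24 (SE 0.25). Chosen after their values were seen, Foxm1 had -2.86 (SE 0.32), E2f1 -3.04 (SE 0.24), and the other higher genes E2f6 0.60 (SE 0.15) and Rbl2 0.65 (SE 0.23). In CAS129 minus BL6, 9 of the 18 regulators had a higher value and 1, Rbl2 at -1.48 (SE 0.27), a lower one. Over all genes, 13.7% were higher and 4.53% lower.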

How the data were processed

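Gene counts of 20 libraries were taken from the deposited table, made with STAR on GRCm38 (mm10) per the submitters' processing notes. The sources used here do not name the counting program, its annotation or its use of strand. Of its 28 columns, 8 matched no sample and were not used, and 7 samples with no matched column are not analysed here. Positions and exon lengths came from a GENCODE annotation of GRCm38, which held 27030 of the 27071 IDs. The genes and lists were chosen with earlier results of these data known. No sequence tables of promoters or proteins were used here.

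Genes with at least 1 CPM in 2 libraries of a fit were tested with edgeR 4.0.16 (R 4.3.3; TMM, quasi-likelihood test, Benjamini-Hochberg over all genes tested, threshold 0.05), after a check on simulated data. MN against PSC used 17 libraries with genotype; within-genotype and difference tests used all 20 libraries, and comparisons within a cell type used that type's libraries. Alternatives were RLE and upper-quartile scaling, DESeq2 1.42.0, other count filters, a replicate block, a joint fit and leaving out each library. Values were given in full for the genes highest in CPM per role, those with the 3 highest and 3 lowest levels left in BL6 MN and CAS129 MN, and those unlike the majority call.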

Additional observations from a re-analysis of the deposited data

Results flagged for a closer look

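The change between MN and PSC differed between genotypes by the test of that difference itself. In CAS129 minus BL6, 30 of 34 genes had a higher value, and in CAS129 minus CAST 22 did. Beside these, 13.7% and 4.37% of all genes tested were called higher (edgeR). Pcna and Tyms have no counts in the hybrid, so the calls lie among the other 32 genes. Both counts fell when certain single libraries were left out, with ranges given below. Both comparisons use the same CAS129 libraries, so they are not independent of each other. Pluripotency markers were higher in CAS129 MN than in the other MN libraries, and their part in these counts was not tested. Of the 17 genes picked by rule for full values, 0 had a library that stood apart from the other BL6 MN libraries by Dixon's criterion over 7 libraries. That criterion looks for a single outlying library. It can miss a pair that is high together, as replicates 3 and 4 were for most mitosis genes.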

How the results depend on the processing

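No direction reversed. The 34 lower genes in MN against PSC, and the 30 higher and 2 lower in CAS129 MN against BL6 MN, kept their number within 1.5 times under all alternatives run. Counts that moved further were these. CAS129 minus CAST gave 13 with RLE scaling. 129 MN against BL6 MN, 4 in all, gave 8 with DESeq2, 8 with all 20 libraries in a joint fit, and 10 without BL6 MN replicates 3 and 4. CAST MN against BL6 MN gave 1 with DESeq2, with a filter of 5 CPM, in the joint fit and without BL6 MN replicates 3 and 4. 129CAS MN against BL6 MN gave 9 with DESeq2, and 2 over the genes with counts in the hybrids. CAST PSC against BL6 PSC gave 1 with DESeq2. Over the genes with counts in the hybrids, CAS129 PSC gave 3 against BL6 PSC and 2 against CAST PSC. Settings without 2 libraries, over the genes with hybrid counts and without Gins2 were chosen after seeing the data.

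The median level left moved to 4.27% with BL6 PSC as the base (replication, CAST MN), and for mitosis in 129 MN to 2.97% with that base, 2.42% with raw totals, 2.3% with RLE and 2.23% with upper-quartile scaling. Leaving out 1 library gave 18 to 31 for CAS129 minus BL6, 0 to 3 for CAST minus BL6 and 11 to 26 for CAS129 minus CAST. It gave 1 to 8 for 129 MN, 0 to 1 for CAST MN and 4 to 7 for 129CAS MN, each against BL6 MN. In PSC it gave 0 to 5 (CAST against BL6), 2 to 7 (CAS129 against BL6) and 2 to 5 (CAS129 against CAST). The gap between replication and mitosis was 0.581 to 1.179, and the level left 2.86% to 4.2% (replication, CAST MN), 2.8% to 3.66% (replication, 129CAS MN) and 2.21% to 2.7% (mitosis, 129 MN). With the replicate number as a block, 129 MN against BL6 MN gave 1 and CAS129 minus BL6 26, and CAS129 MN against BL6 MN 30, and Cdc45 in CAS129 minus BL6 (adjusted p = 0.079) and Aurka in CAS129 MN against BL6 MN (adjusted p = 0.059) were not called. The numbers do not pair the libraries: same-numbered deviations correlated at -0.02 to 0.456 over 3 PSC pairs and -0.157 to 0.573 over 25 pairs with MN. The cause of these shifts was not tested.

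Depth limits the lowest values. In BL6 MN, mitosis genes reached 1 read, and totals of 5612575 to 6294099 counts in CAS129 MN set a floor of 0.477 to 0.535 CPM. Groups of 1 library borrow their spread from the others.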

Other observations

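Genes that act in G1 or hold cells back from division moved in both directions. Of 10 measured cell cycle inhibitors, 6 were higher in MN than in PSC and 3, Cdkn1b, Cdkn2c and Gadd45a, lower (edgeR, adjusted p below 0.05; these 3 were named after their values were seen). Over all genes, 36.1% were higher and 38.5% lower. Cdkn1a, which encodes p21, had a log2 change of 2.05 (SE 0.25), and Cdkn2b, which encodes p15, 3.51 (SE 0.28). Cdkn1a stood at 1842, 1925 and 2030 CPM in CAS129 MN and at 556 to 1066 CPM in BL6 MN (log2 1.02, SE 0.18, adjusted p = 0.00027 with edgeR). Between these groups, it was higher where replication and mitosis RNA was also higher. The 10 inhibitors summed to 2780 to 3010 CPM in CAS129 MN and to 1030 to 1950 CPM in BL6 MN. In 129CAS MN they summed to 2710 CPM, but the 32 cycle genes kept a median of 1.92% of the PSC level. The 129CAS MN values come from 1 library, and a link between inhibitor and cycle RNA was not tested. Of the 10 inhibitors, 4 were higher and 1 lower in CAS129 MN than in BL6 MN, beside 27% and 32.5% of all genes. In CAS129 minus BL6, 2 of them, Cdkn1c at 3.24 (SE 0.80) and Gadd45a at 2.92 (SE 0.46), had a higher change between MN and PSC, beside 13.7% of all genes.

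Of 7 G1 cyclins and kinases, 2 were higher and 3 lower in MN than in PSC, shares near the 36.1% and 38.5% of all genes. Ccnd2, cyclin D2, had 5.08 (SE 0.72), Cdk6, its kinase partner, 1.27 (SE 0.46), and the kinase Cdk4 -1.15 (SE 0.18). Ccnd2 stood at 791 to 857 CPM in CAS129 MN and at 500 to 1248 CPM in BL6 MN. None of the 7 was called between CAS129 MN and BL6 MN with edgeR, and 0 of them at unadjusted p below 0.05. With edgeR, the change between MN and PSC was higher in CAS129 than in BL6 for 2 of the 7 and lower for 0. Over all genes, 13.7% were higher and 4.53% lower. The 2 higher ones were Ccnd2 at 3.47 (SE 1.05, adjusted p = 0.029) and Ccnd3 at 1.41 (SE 0.39, adjusted p = 0.02). In PSC, the 7 genes summed to 768 to 906 CPM in CAS129 and to 1220 to 1740 CPM in BL6. In MN the sums overlapped, at 1570 to 1700 CPM in CAS129 and 971 to 2260 CPM in BL6.

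The BL6 PSC replicates differed from each other. Over the 34 genes, the log2 ratio of replicate 2 to replicate 1 ran from -1.79 to 0.82, with 17 genes higher and 17 lower, and had a rank correlation of -0.45 with exon length. This describes 2 libraries across genes, which are not independent replicates.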
